A study of Mus musculus with 288 samples.

Results

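The genes described here are 48 genes of G2 phase and mitosis, chosen by name as members of the mitotic programme, out of 54232 genes counted in single mouse embryonic stem cells by RNA-seq. Reads of the 48 genes were compared in cells of the line E14 at 0, 24 and 48 h after the culture medium was changed from 2i + LIF to serum + LIF. The label D0 marks cells in 2i + LIF, a medium with the MEK inhibitor PD0325901, the GSK3 inhibitor CHIR99021 and the cytokine LIF, and the labels D1 and D2 mark cells after 24 and 48 h in serum + LIF. The RNA came from scNMT-seq, which separates RNA from DNA in each sorted cell, and only the RNA was used here. All cells of every label had been incubated with the GpC methyltransferase M.CviPI before lysis. Each label had 96 wells and held, so far as can be read from the labels, a single culture sorted onto 1 plate, so that plate, library and time cannot be told apart and no difference between labels was tested, since cells of 1 culture do not replicate it.

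Mitosis is driven by the kinase CDK1, which is switched on by B-type cyclins at the end of G2 and switched off when the anaphase-promoting complex marks those cyclins for destruction. Most of the genes of this programme are transcribed in a wave that builds through G2 and is silenced in G1, so that a cell's level of them reflects where it stands in the cycle. Embryonic stem cells in culture cycle rapidly and have a short G1 phase, and a large share of them is found in S and G2 phase at any time.

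After the filter of the study (reads over 200000, detected genes over 2000, mitochondrial fraction below 0.15), 90 cells labelled D0, 50 labelled D1 and 93 labelled D2 were kept, 233 of 288 wells, a few more than the number of cells the study states. Their totals lay between 202157 and 43336922 reads. After random thinning of every cell to 200000 reads, the median cell had a read of 7824 genes in D0, 8058 in D1 and 3952 in D2, so that fewer genes are seen in D2 at equal depth. All 8 pluripotency markers examined had reads under every label, at a median sum of 4951 CPM (reads scaled to a total of 1000000 per cell) in D0, 6009 in D1 and 9365 in D2. The median sum of the 6 fibroblast markers, of the 6 primitive endoderm markers and of the 5 2-cell-like markers was 0 CPM under every label, and none of the 5 2-cell-like markers had a read in D0 or D2. Col1a2, Col3a1 and Sox7 had no read in D0 or D2, Dcn none in D0, Gata6 none in D1, Dab2 none in D2 and Elf5 none in D1 or D2. The 6 trophectoderm markers summed to a median of 16.5 CPM in D0, 5.74 in D1 and 0 in D2, and to 791, 703 and 3216 CPM in the highest cell. The D1 plate differed from the others in Hprt, a gene that is partly deleted in a widely used subline of E14, and in Y-linked genes. Hprt had a read in 48 of 50 D1 cells but in 9 of 90 D0 and 7 of 93 D2 cells, and 4 Y-linked genes, chosen after their values were seen, had one in 48, 3 and 5 cells. The labels name E14 for all cells, and an origin of the D1 cells in another subline cannot be told apart from time in serum, in any ratio with D1.

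A shared feature of these genes lies in their promoters. The CCAAT box, bound by NF-Y, and the cell cycle homology region, bound by the MuvB complexes that silence the genes in G1 and activate them in G2, are the elements best known for timing mitotic genes. Promoters of 42 of the 48 genes were found in the RefSeq table for GRCm38.p6, as 46 windows from 250 bases before to 50 bases after a start. CCAAT, or ATTGG for the other strand, stood in 37 of the 46 windows (80.4%), against 37.4% of all 32851 windows in the table. The core of the homology region, written TTTGAA or TTCGAA, or TTCAAA for the other strand of the first, stood in 35 windows (76.1%), against 19.2% of all. Both stood in 30 windows (65.2%), against 7.52%, and at least 2 CCAAT boxes in 30 windows (65.2%), against 11.7%. The E2F type words TTTGGCGC and TTTCCCGC (GCGCCAAA and GCGGGAAA) stood in 2 windows (4.35%), against 1.56%. The words for CCAAT and for the homology region can share an end base, and a match of letters is not a shown site.

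Stretches of 100 bases that end just before the most upstream annotated start are given for 6 of the genes, on the strand of the gene, with both kinds of element in capitals. Cdk1 and Ccnb2 stand for the kinase and its cyclin, Cdc20 and Hmmr for genes that were higher after release, and Top2a and Lbr for genes that were lower at 48 h.
Cdk1, chr10:69352939-69353038, minus strand: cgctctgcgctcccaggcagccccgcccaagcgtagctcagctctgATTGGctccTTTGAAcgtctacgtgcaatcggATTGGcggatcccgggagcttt
Ccnb2, chr9:70421555-70421654, minus strand: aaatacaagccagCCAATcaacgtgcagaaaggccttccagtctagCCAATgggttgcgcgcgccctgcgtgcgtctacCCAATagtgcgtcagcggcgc
Cdc20, chr4:118437353-118437452, minus strand: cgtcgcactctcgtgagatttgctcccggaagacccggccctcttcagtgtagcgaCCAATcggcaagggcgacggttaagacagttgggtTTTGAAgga
Hmmr, chr11:40733438-40733537, minus strand: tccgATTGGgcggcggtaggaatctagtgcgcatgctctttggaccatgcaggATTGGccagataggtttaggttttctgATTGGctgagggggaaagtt
Top2a, chr11:99024190-99024289, minus strand: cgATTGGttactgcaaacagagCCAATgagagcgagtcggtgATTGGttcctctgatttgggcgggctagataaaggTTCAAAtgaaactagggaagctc
Lbr, chr1:181842402-181842501, minus strand: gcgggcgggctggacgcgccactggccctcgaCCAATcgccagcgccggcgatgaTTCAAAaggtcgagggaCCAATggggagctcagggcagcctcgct

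The 48 genes were all expressed under every label. The smallest share of cells with a read was 22.6%, for Cdca2 in D2, and 39 genes reached 50% under all 3 labels. The share of cells with a read had a median over the genes of 90% in D0, 98% in D1 and 75.3% in D2. Mean levels ran from 26.8 CPM for Cdc25c to 757 CPM for Top2a in D0, from 33.3 CPM for Cdc25c to 1008 CPM for Tubb4b in D1, and from 26.6 CPM for Cdca2 to 1399 CPM for Tubb4b in D2. Per kilobase of transcript, the highest mean level was that of Tubb4b in D0 (316 CPM per kb), of Cks1b in D1 (550) and again of Tubb4b in D2 (670), and the lowest was that of Cdc25c in D0 (5.45), Tmpo in D1 (5.18) and Cenpf in D2 (4.19).

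On release the programme was not shifted as one. The median log2 ratio of mean CPM + 1 over the 48 genes was 0.23 (D1 over D0) or 0.20 (D2 over D0), where the median over all tested genes, those read in 50% or more of the cells under either label, was -0.20 (10494 genes) and -0.24 (8822 genes). Members spread from -1.94 to 2.06 in D1 over D0, while D2 over D0 gave -1.71 to 1.75. Ratios above 0 were found for 26, 27 and 22 members in D1 over D0, D2 over D0 and D2 over D1, beside 42.7%, 42.2% and 47.4% of all genes. Of the 48, 6 were at least 2-fold higher in D1 than in D0 and 4 at least 2-fold lower, beside 13.2% and 25.1% of all genes. In D2 over D0, 6 were at least 2-fold higher and 8 at least 2-fold lower, beside 9.74% and 28.1% of all genes. In D2 over D1 the median was -0.11, beside -0.07 over 9855 genes, and 0 members were at least 2-fold higher and 4 at least 2-fold lower, beside 15.0% and 19.4%. The share of members at least 2-fold higher in D1 or D2 than in D0 was 12.5%, close to that of all genes, while the share at least 2-fold lower, 8.33% in D1 and 16.7% in D2, was below it. At 1.5-fold, 14 members were higher and 8 lower in D1 over D0, beside 22.4% and 37.4% of all genes. The counts were 15 and 12 in D2 over D0, beside 21.4% and 39.3%, and 6 and 10 in D2 over D1, beside 26.4% and 30.3%. The sign of the median depended on the cells taken: it was -0.06 in D1 over D0 with no filter on cells, and -0.02 in D2 over D0 in the cells of plate columns 1 to 6. Both comparisons use the same D0 cells. Cks1b and Cdc20 were at least 2-fold above D0 in both (4.17% of the 48), beside 4.58% of the 10512 genes read in 50% or more of the cells of any label. Ckap5, Tmpo and Lbr were at least 2-fold below it in both (6.25%), beside 14%. A total of 28 members (58.3%) lay within 2-fold in all 3 comparisons, beside 38.6%.

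**Figure D1:**
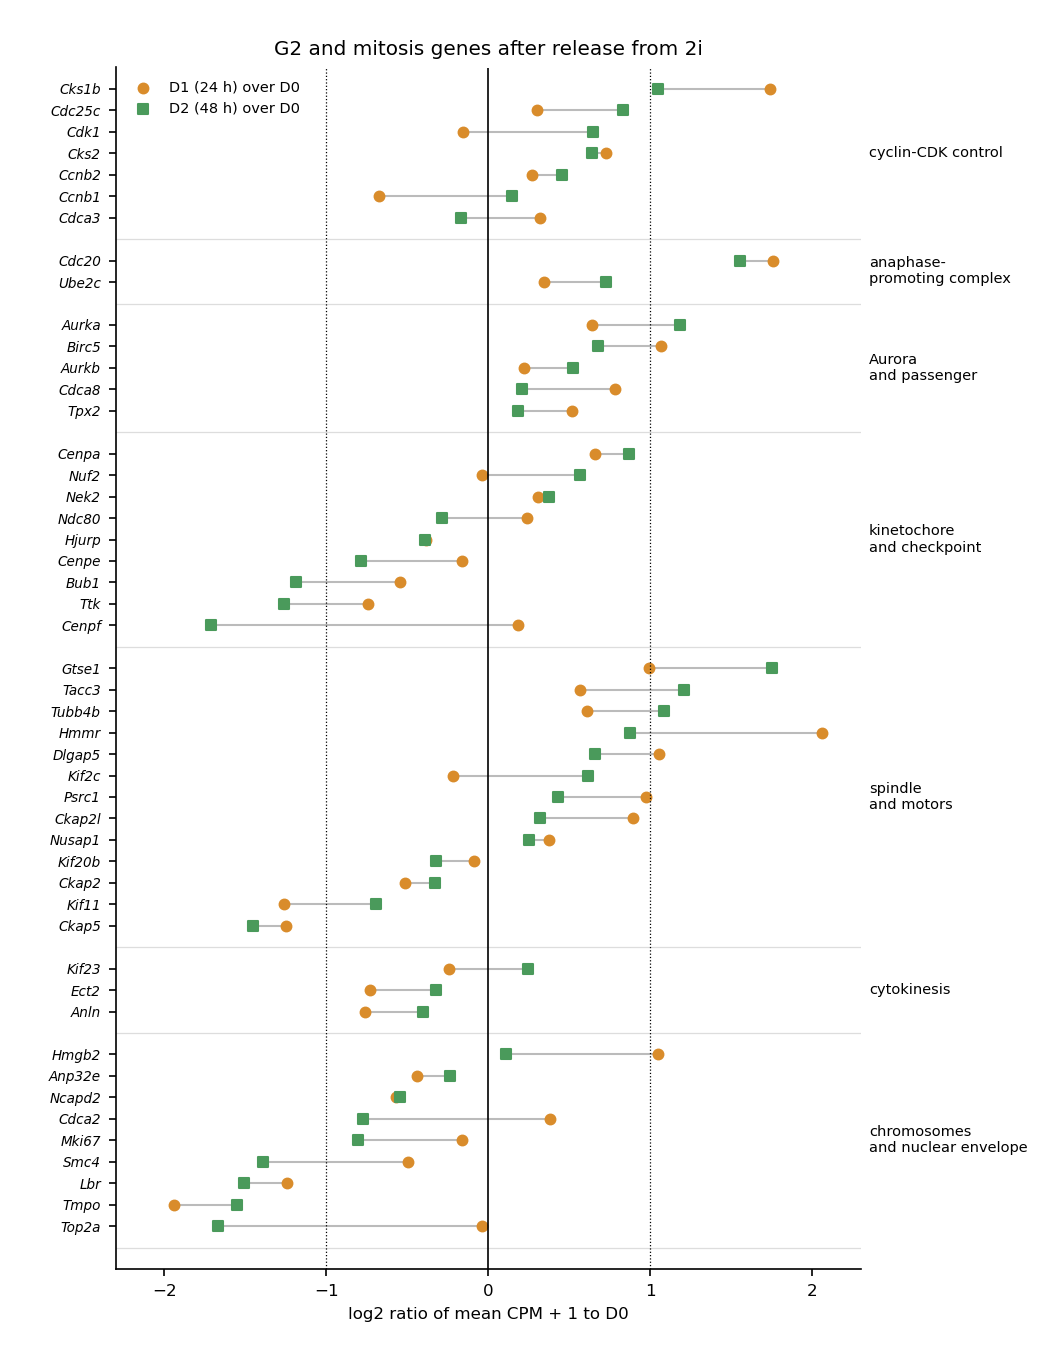
Log2 ratio of mean CPM + 1 to D0 for each of the 48 genes (rows, grouped by role), with D1 as circles and D2 as squares, and dotted lines at 2-fold. The anaphase-promoting complex and Aurora groups lie to the right of 0 under both labels, and 8 of the 9 chromosome and nuclear envelope genes lie to the left in D2.

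The spread between cells was wide for every gene. For 37 of the 48 genes the interquartile ranges over cells overlapped between all 3 labels. They were apart in at least 1 pair for 11 genes (22.9%), beside 43.7% of the 10512 genes. D1 lay above D0 for Cks1b and Birc5 (4.17%, beside 7.55%), and D0 above D1 for Anln, Tmpo and Lbr (6.25%, beside 6.65%). D0 lay above D2 for Tmpo and Lbr (4.17%, beside 22.9%), and D2 above D0 for Tubb4b (2.08%, beside 2.10%). D1 lay above D2 for 6 genes, Cks1b, Cdc25c, Ttk, Nek2, Mki67 and Cdca2 (12.5%, beside 27.3%), and D2 above D1 for 0, beside 1.62%. Apart from the pairs with D2 as the lower label, where the members' share was below that of all genes, the shares are close to the background. In D2 the mean and the median cell often lay far apart. The study describes a group of D2 cells whose transcriptomes differ from the others of that label. Its clusters were not used here, all D2 cells were pooled, and the part of that group in the gap was not tested. With the median over cells in place of the mean, the median log2 ratio of the members in D2 over D0 was -1.80, and that of all genes -3.00. Of the 27 members with a ratio of means above 0 in D2 over D0, 13 had a lower median cell in D2 than in D0, which is 27.1% of the 48, beside 25.3% of all genes. In D1 over D0 this held for 0 members, beside 1.87% of all genes, and in D2 over D1 for 16 (33.3%), beside 37.3%. Ratios of means for D2 are therefore given below with the median cell. Single high cells also decided some calls. Without the highest D2 cell of a gene, the ratio in D2 over D0 was -0.44 for Nek2, -0.04 for Nusap1 and -0.12 for Ckap2l, which had ratios above 0 with it. Cks1b was then at 0.97, and Mki67 and Cdca2 at -1.17 and -1.13, so that they crossed 2-fold. The call changed for 3 of 48 members, beside 12.5% of all genes. In D1 over D0, without the highest D1 cell, Dlgap5 was at 0.90, Hmgb2 at 0.92 and Anln at -1.65. Without the highest D0 cell, Psrc1 was at 1.04 and Gtse1 at 1.03. In D2 over D1, Ckap2l was at -1.02 and Mki67 at -1.01 without the highest D2 cell, where Nek2 and Ncapd2 turned to -0.75 and -0.25, and Anln was at 1.24 without the highest D1 cell. Nuf2 and Top2a in D1 over D0, and Cks2 and Hjurp in D2 over D1, all within 0.1 of 0, also changed sign.

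Of the 7 genes of cyclin and CDK control, 5 had a log2 ratio above 0 in D1 over D0, as had 6 in D2 over D0, beside 42.7% and 42.2% of all genes. In each, 1 was at least 2-fold higher, beside 13.2% and 9.74% of all genes, and none at least 2-fold lower, beside 25.1% and 28.1%. Cks1b encodes a small subunit that binds CDKs and helps them reach their substrates. It was found at 3.33, 173 and 1006 CPM in the lowest, median and highest D0 cell, 163, 614 and 1302 CPM in D1, and 0, 345 and 2284 CPM in D2. The lowest D1 cell thus lay near the median of D0. Means under D0, D1 and D2 were 185 ± 134, 619 ± 227 and 383 ± 292 CPM (SD between cells), a log2 ratio of 1.74 in D1 and 1.05 in D2 over D0. The related Cks2 had means of 215 ± 194, 357 ± 367 and 336 ± 201 CPM in D0, D1 and D2, with ratios of 0.73 and 0.64, both within 2-fold. Its median cell was at 179, 217 and 337 CPM.

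Cdk1, the kinase itself, had reads in 81 of 90 D0 cells, 49 of 50 D1 cells and 83 of 93 D2 cells. Its lowest, median and highest cells had 0, 181 and 915 CPM in D0, 0, 201 and 603 CPM in D1, and 0, 366 and 2209 CPM in D2. The cells of the 3 labels overlapped, with the D1 cells drawn together (SD 114 CPM, against 225 in D0 and 355 in D2). The log2 ratio was -0.16 in D1 and 0.65 in D2 over D0, and 0.80 in D2 over D1. Ccnb1, cyclin B1, had the second largest difference among the genes higher in D2 than D1, at 0.82, after Kif2c. It was found at 0, 663 and 2306 CPM in the lowest, median and highest D0 cell, 39.99, 463 and 1054 CPM in D1, and 0, 644 and 2910 CPM in D2. Its mean of 461 CPM in D1 lay below those of 735 CPM in D0 and 815 CPM in D2, and its 4 processed copies elsewhere in the genome had under 2% of the reads. Ccnb2, cyclin B2, had means of 189 ± 185, 228 ± 113 and 259 ± 293 CPM, with its median cell at 143, 210 and 174 CPM. Cdc25c, the phosphatase that activates CDK1, had ratios of means of 0.30 in D1 and 0.83 in D2 over D0, but its median cell was at 8.73, 24.7 and 0 CPM and it had a read in only 26 of 93 D2 cells, against 58 of 90 in D0 and 42 of 50 in D1. Cdca3, which links the mitotic inhibitor WEE1 to its destruction, had ratios of 0.32 and -0.17 and a median cell at 68.9, 87.3 and 34.2 CPM.

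Cdc20 and Ube2c work with the anaphase-promoting complex, Cdc20 as the activator that brings substrates to it in mitosis and Ube2c as the enzyme that starts ubiquitin chains. Cdc20 was at 0, 151 and 1506 CPM in the lowest, median and highest D0 cell, 0, 799 and 3642 CPM in D1, and 0, 690 and 3801 CPM in D2. The median D1 and D2 cells stood above the upper quartile of D0 (462 CPM). Summed over cells these were 47771 reads in D0 (exact Poisson interval 47344 to 48201), 570729 in D1 (569249 to 572212) and 203426 in D2 (202543 to 204312). These intervals take reads as independent, which PCR copies are not. The means of Cdc20 were 275 ± 309, 931 ± 806 and 809 ± 655 CPM, with log2 ratios of 1.76 and 1.55 over D0. Ube2c was at 0, 111 and 1157 CPM in D0, 21.4, 238 and 938 CPM in D1, and 0, 320 and 1512 CPM in D2, with ratios of 0.34 and 0.72. Of the 15 other subunits and regulators of the complex that were examined, none of them members, 2 were at least 2-fold higher in D1 than in D0 and 5 at least 2-fold lower, beside 13.2% and 25.1% of all genes, with a median of -0.43. In D2 over D0 these counts were 1 and 2, beside 9.74% and 28.1%, with a median of 0.00314. With the median over cells in place of the mean, their median ratio was -0.31 in D1 and -2.72 in D2 over D0. Cdc26, a small structural subunit, was higher at both times (mean 40.6 CPM in D0, 94.2 in D1 and 154 in D2, median cell 31.7, 97.9 and 131), and Anapc13 was higher in D1 (mean 79.2 CPM against 32.9, median cell 50.3 against 26.5). Anapc1, the largest subunit, had means of 121, 31.9 and 207 CPM under D0, D1 and D2, and its median cell was at 95.01, 21.2 and 0 CPM.

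The 5 genes of the Aurora kinases and the chromosomal passenger complex had log2 ratios of means above 0 in both comparisons with D0, beside 42.7% and 42.2% of all genes, with a median of 0.64 in D1 and 0.52 in D2. Birc5, survivin, which anchors Aurora B at the centromere, was at 0, 212 and 1652 CPM in the lowest, median and highest D0 cell, 5.71, 482 and 1124 CPM in D1, and 0, 333 and 2197 CPM in D2. The interquartile range of the D1 cells (374 to 547 CPM) lay above that of D0 (86.6 to 332 CPM). The ratio of means was 1.06 in D1 and 0.68 in D2. Aurka, the kinase of the spindle poles, was at 0, 71.9 and 769 CPM in D0, 0, 166 and 637 CPM in D1, and 0, 206 and 1500 CPM in D2, with ratios of 0.64 and 1.19. The interquartile range of the D2 cells ran from 7.73 to 452 CPM, against 5.50 to 173 CPM in D0, so that the labels overlapped at the low end. Aurkb, the kinase of the passenger complex, had a read in 63 of 90 D0 cells, 49 of 50 D1 cells and 44 of 93 D2 cells. Its mean was nonetheless highest in D2 (110 ± 257 CPM, against 76.1 ± 95.8 in D0 and 88.9 ± 70.7 in D1), with its median D2 cell at 0 and its highest at 1870 CPM. Cdca8, borealin, had ratios of means of 0.78 and 0.21, with its median cell at 111, 223 and 86.7 CPM. Tpx2, the activator of Aurora A, had 0.52 and 0.18, with its median cell at 119, 207 and 92.9 CPM. For Aurkb, Cdca8 and Tpx2 the median D2 cell was thus below that of D0, although the ratio of means was above 0.

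Of the 9 genes of the kinetochore and the spindle checkpoint, none was at least 2-fold apart in D1 over D0, beside 13.2% of all genes higher and 25.1% lower, and 3 were at least 2-fold lower in D2 over D0, beside 28.1% of all genes. Cenpf, a large protein of the outer kinetochore and the longest transcript of the 48 (15.4 kb), was at 0, 148 and 1746 CPM in the lowest, median and highest D0 cell, 0, 158 and 1468 CPM in D1, and 0, 8.70 and 715 CPM in D2. Its D2 cells were low as a group, with reads in 56 of 93 cells against 77 of 90 in D0 and 48 of 50 in D1. The log2 ratio was 0.18 in D1 over D0, -1.71 in D2 over D0 and -1.89 in D2 over D1. Bub1, a checkpoint kinase that binds the kinetochore, had means of 166 ± 151, 114 ± 91.2 and 72.4 ± 133 CPM in D0, D1 and D2, with ratios of -0.54 and -1.19 over D0 and a median cell at 138, 89.1 and 4.37 CPM. Ttk, the kinase MPS1 that starts the checkpoint, had 66.8 ± 79.7, 39.6 ± 37.2 and 27.3 ± 87.1 CPM, with ratios of -0.74 and -1.26 and a median cell at 43.1, 32.1 and 0 CPM. Cenpa, the histone H3 variant that marks centromeres, went the other way with ratios of 0.66 and 0.87 and a median cell at 114, 236 and 165 CPM. Its chaperone Hjurp had -0.38 and -0.39, with a median cell at 88.1, 59.2 and 0 CPM. Ndc80 and Nuf2 are partners in the complex that holds microtubules. Ndc80 had ratios of 0.24 and -0.28 and a median cell at 62.3, 74.7 and 0.455 CPM. Nuf2 had ratios of means of -0.04 and 0.57, but its median cell was at 22.4, 31.8 and 0 CPM, with a read in 36 of 93 D2 cells against 65 of 90 in D0. Ndc80 is uncertain, because the transcript 2700099C18Rik matches a stretch of it and held 22.1% to 26.3% of the reads of the pair. Cenpe, the kinetochore motor, had -0.16 and -0.78, with a median cell at 103, 101 and 0 CPM. Nek2, a centrosome kinase, had ratios of means of 0.31 and 0.38, but its median cell was at 20.1, 29.8 and 0 CPM, with a read in 27 of 93 D2 cells against 68 of 90 in D0. Its D2 mean of 47.5 CPM rested on 1 cell at 1977 CPM, without which it was 26.5 CPM, against 36.3 CPM in D0, and the ratio was -0.44. For Cdc25c and Nuf2 the higher D2 mean came with fewer D2 cells that had a read.

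The 13 genes of the spindle and its motors held the largest rise in each comparison with D0, Hmmr in D1 and Gtse1 in D2, while the largest falls lay in other groups. Hmmr, a spindle assembly factor that binds microtubules and hyaluronan, was at 0, 49.3 and 344 CPM in the lowest, median and highest D0 cell, 0, 199 and 1153 CPM in D1, and 0, 89.1 and 549 CPM in D2. The D1 median stood above the upper quartile of D0 (102 CPM). Its means of 69.4 ± 76.9, 292 ± 289 and 128 ± 136 CPM gave log2 ratios of 2.06 in D1 over D0, 0.88 in D2 over D0 and -1.18 in D2 over D1. Gtse1, which stabilizes microtubules in mitosis and holds back p53 in G2, was at 0, 54.5 and 228 CPM in D0, 16.7, 107 and 640 CPM in D1, and 0, 104 and 1763 CPM in D2. The median D2 cell was thus no higher than the median D1 cell, while the ratio of means was 0.99 in D1 and 1.75 in D2 over D0. Tacc3, a spindle protein that Aurora A phosphorylates, had means of 114 ± 104, 170 ± 92.8 and 264 ± 305 CPM, with ratios of 0.57 and 1.21 and a median cell at 88.5, 161 and 160 CPM. Tubb4b, a beta-tubulin, was at 0, 536 and 3658 CPM in D0, 11.4, 991 and 2095 CPM in D1, and 1.93, 1323 and 3432 CPM in D2. The interquartile range of its D2 cells began at 939 CPM, above the upper quartile of D0 (894 CPM), and the ratios were 0.61 and 1.08. Dlgap5, a spindle assembly factor, had a ratio of 1.05 in D1 and 0.66 in D2, with a median cell at 29.5 CPM in D0, 72.8 in D1 and 1.37 in D2.

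Lower in the same group were Ckap5 and Kif11. Ckap5, the microtubule polymerase known as chTOG, was at 0, 199 and 647 CPM in the lowest, median and highest D0 cell, 0, 57.6 and 475 CPM in D1, and 0, 1.37 and 794 CPM in D2, with ratios of -1.25 and -1.45. The upper quartile in D1 (108 CPM) and in D2 (74.8 CPM) stayed below the D0 median. Kif11, the kinesin that pushes the spindle poles apart, was at 0, 200 and 1153 CPM in D0, 0, 81.7 and 526 CPM in D1, and 0, 40.7 and 884 CPM in D2, with ratios of -1.26 and -0.70. Kif2c, a kinesin that takes microtubules apart, had the largest ratio in D2 over D1 (0.83), with means of 88.9 ± 101, 76.3 ± 53.1 and 137 ± 204 CPM, but its median cell was at 76.6, 70.3 and 24.1 CPM. The remaining spindle genes lay within 2-fold. Psrc1, a spindle protein, had ratios of 0.98 and 0.43 and a median cell at 58.1, 151 and 49.5 CPM. Ckap2l, also of the spindle, had 0.89 and 0.32 and a median cell at 33.4, 58.5 and 0 CPM. Nusap1, which bundles microtubules, had 0.37 and 0.25 and a median cell at 15.99, 48.2 and 11.01 CPM. For these 3 genes the median D1 cell was above that of D0 and the median D2 cell below it. Kif20b, a kinesin of cytokinesis, had -0.09 and -0.32 and a median cell at 235, 197 and 58.8 CPM, and Ckap2, a microtubule-associated protein, had -0.52 and -0.33 and a median cell at 95.8, 73.5 and 6.76 CPM.

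The 3 genes of cytokinesis had ratios below 0 in D1 over D0, where 42.7% of all genes lay above 0, and for Anln 1 cell decided whether the difference reached 2-fold. Anln, which encodes anillin, a scaffold of the contractile ring, was at 0, 234 and 862 CPM in the lowest, median and highest D0 cell, 0, 68.1 and 3651 CPM in D1, and 0, 77.6 and 1208 CPM in D2. A single D1 cell at 3651 CPM stood far above the D1 upper quartile of 103 CPM and is inside the D1 mean of 154 ± 512 CPM, which gave a ratio of -0.76. Without that cell the D1 mean was 83.005 CPM, against 262 CPM in D0, and the ratio was -1.65. Ect2, the exchange factor that activates RhoA at the division plane, had -0.73 and -0.32, with a median cell at 181, 115 and 13.4 CPM. Kif23, a kinesin of the central spindle, had ratios of means of -0.24 and 0.25, with a median cell at 69.3, 69.1 and 27.7 CPM.

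Of the 9 genes of chromosome structure and the nuclear envelope, 7 had a ratio below 0 in D1 and 8 in D2, where the median of all genes was also below 0. At least 2-fold lower were 2 in D1 and 4 in D2, beside 25.1% and 28.1% of all genes. Top2a, the topoisomerase that untangles sister chromatids, was at 0, 646 and 3491 CPM in the lowest, median and highest D0 cell, 105, 576 and 2814 CPM in D1, and 0, 40.2 and 2451 CPM in D2. The D0 and D1 cells overlapped throughout, while the upper quartile of D2 (371 CPM) lay below both of their medians. Its ratio was -0.04 in D1 over D0, -1.67 in D2 over D0 and -1.63 in D2 over D1. Tmpo, the lamina-associated polypeptide 2, was at 0, 211 and 843 CPM in D0, 0, 53.1 and 211 CPM in D1, and 0, 3.93 and 777 CPM in D2. The highest D1 cell had the level of the median D0 cell, and the ratios were -1.94 and -1.55. Lbr, the lamin B receptor, was at 0, 235 and 782 CPM in D0, 2.52, 106 and 461 CPM in D1, and 0, 18.2 and 586 CPM in D2, with ratios of -1.24 and -1.51. Smc4, the condensin subunit, had 348 ± 286, 247 ± 193 and 132 ± 154 CPM, with ratios of -0.49 and -1.39 and a median cell at 251, 223 and 57.2 CPM. Ncapd2, of the same complex, had -0.57 and -0.55, with a median cell at 104, 76.4 and 3.11 CPM.

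Mki67, which coats mitotic chromosomes and is the source of the Ki-67 marker, was at 0, 127 and 681 CPM in the lowest, median and highest D0 cell, 0, 86.8 and 982 CPM in D1, and 0, 0.586 and 2086 CPM in D2. It had reads in 48 of 93 D2 cells, against 75 of 90 in D0 and 48 of 50 in D1, and its ratios of -0.16 and -0.81 lay within 2-fold. Cdca2, which recruits phosphatase 1 to chromosomes, had a read in 59 of 90, 48 of 50 and 21 of 93 cells, with 0.38 and -0.77 over D0, -1.15 in D2 over D1 and a median cell at 17.8, 40.8 and 0 CPM. Hmgb2, a DNA-bending protein, was higher in D1, at 190, 450 and 3263 CPM against 52.99, 309 and 2591 CPM in D0 and 51.7, 336 and 928 CPM in D2, with ratios of 1.04 and 0.11. Close copies of Hmgb2 held between 10.3% and 16.7% of the reads of the group, which makes its level uncertain. Anp32e, the chaperone that removes the histone variant H2A.Z, had -0.44 and -0.24, with a median cell at 114, 84.04 and 46.96 CPM.

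Transcript length moved with these differences. The median ratio of all tested genes fell from 0.44 in the shortest of 10 length classes to -0.99 in the longest in D1 over D0, and was 0.29 and -1.10 in D2 over D0. Across genes, the Spearman correlation of the ratio with length was -0.53 over the 48 members and -0.39 over 10296 genes in D1 over D0, and -0.64 and -0.37 (8672 genes) in D2 over D0. Genes are not independent replicates, and the points share the same cells and libraries. In D2 over D1 it was -0.16 for the members and 0.0328 for all genes. The shortest member was Cks2 (0.692 kb), and the median of the cytokinesis genes was 7.90 kb. Less the median of genes of like length, the median of the members was 0.51 in D1 and 0.39 in D2 over D0. Then 10 members were at least 2-fold higher in D1 and 0 lower, beside 15.4% and 16.6% of all genes on this scale, and 12 were higher in D2 and 1 lower, beside 15.1% and 20.1%. In D2 over D1 there were 0 and 5, beside 15.7% and 18.3%. The 1 that was lower in D2 than in D0 was Lbr, at -1.11. Tmpo was at -0.96 in D1 and -0.45 in D2 on this scale, and Top2a and Cenpf were at -0.86 and -0.61 in D2. Hmmr, a transcript of middle length, was at 2.50 in D1. The part of length in each gene's difference was not tested.

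**Figure D2:**
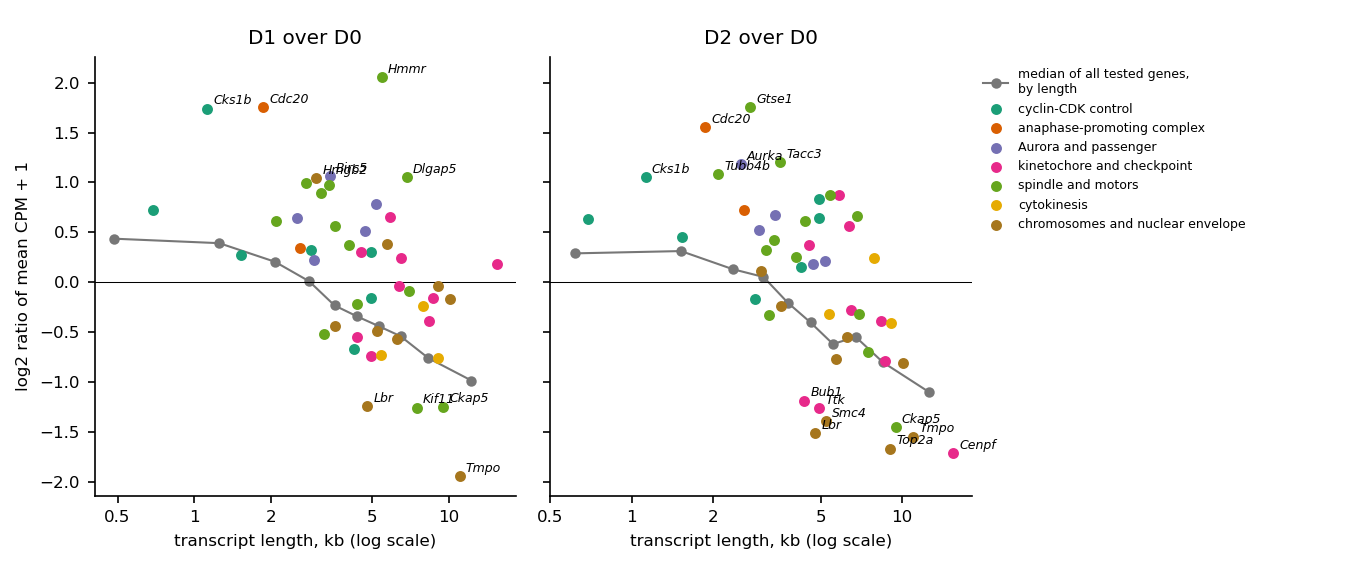
Log2 ratio of mean CPM + 1 over D0 (y axis) against transcript length in kb (x axis, log scale) in D1 (left) and D2 (right), with the 48 genes coloured by role and the grey line giving the median of all tested genes in 10 length classes. The grey line falls with length under both labels, and of the 4 genes at least 2-fold lower in D1, Tmpo, Ckap5 and Kif11 are among the longer members while Lbr (4.76 kb) is near the members' median of 4.84 kb. Hmmr and Cdc20 lie far above the line.

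The summed level of the 48 genes per cell was more even in D1 and D2 than in D0. The summed CPM of the 48 genes ran from 2107 to 22291 in the D0 cells (median 8032), from 4406 to 18934 in D1 (median 10662) and from 2602 to 17506 in D2 (median 9845). Its coefficient of variation, the SD divided by the mean, was 0.539 in D0, and 0.256 and 0.288 in D1 and D2. The 90th percentile was 4.97 times the 10th in D0, 1.69 times in D1 and 2.25 times in D2. The 44 S phase genes did not show the same difference, with coefficients of 0.258, 0.292 and 0.334. In the 56 other mitotic genes examined, which are not members, it was 0.416, 0.257 and 0.399 in that order, so that the lower spread was seen in D1 and not to the same extent in D2. The 15 complex subunits had 0.1995, 0.246 and 0.614, and the 15 condensin and cohesin genes 0.291, 0.286 and 0.764, with D2 the highest in both. A lower coefficient in D2 than in D0 was thus seen for the 48 and, by little, for the other mitotic genes, and not for the other 3 lists.

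The D0 cells reached further at both ends of the range. A sum under the lower quartile of D0 (5007 CPM) was found in 23 of 90 D0 cells (25.6%, fixed by the limit), in 1 of 50 D1 cells (2%, exact Clopper-Pearson interval 0.0506% to 10.6%) and in 3 of 93 D2 cells (3.23%, 0.670% to 9.14%). Intervals cover counting error only, since the counts carry no molecular identifiers and each label is 1 culture. A sum over the upper quartile of D0 (12228 CPM) was found in 24% of D1 cells (13.1% to 38.2%) and 20.4% of D2 cells (12.8% to 30.1%), near the 25.6% of D0. A sum over the 90th percentile of D0 (15426 CPM) was found in 9 of 90 D0 cells (10%, fixed by the limit), 2 of 50 D1 cells (4%, 0.488% to 13.7%) and 3 of 93 D2 cells (3.23%, 0.670% to 9.14%). The 90th percentile was 13793 CPM in D1 and 14290 CPM in D2. The lower quartile was 9100 CPM in D1 and 8339 CPM in D2. These values are scaled to the total of each cell, so fewer cells with a low sum and a lower total of other RNA in them cannot be told apart.

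**Figure D3:**
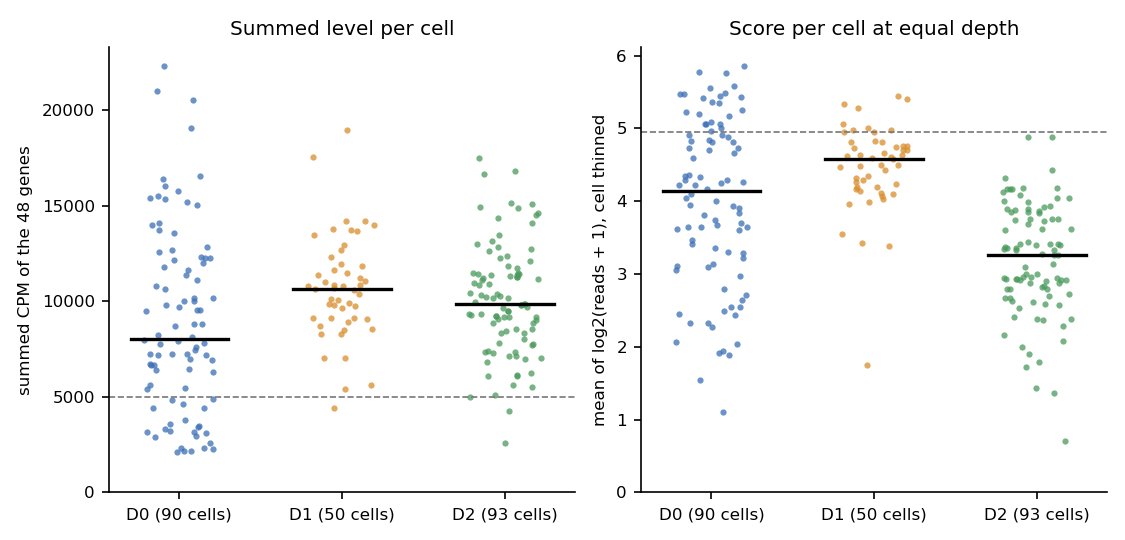
Summed CPM of the 48 genes (left) and score, the mean over the genes of log2(reads + 1) with each cell thinned to 200000 reads (right), for each of the 90 D0, 50 D1 and 93 D2 cells, with black lines at the medians. Dashed lines mark the lower quartile of the D0 sum (left) and the upper quartile of the D0 score (right). D0 cells fill the range below 5007 CPM, where 1 D1 cell and 3 D2 cells are found.

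A score at equal depth was also formed, as the mean over the genes of log2(reads + 1) with each cell thinned to 200000 reads. Its medians were 4.13, 4.58 and 3.26 under D0, D1 and D2, with a lowest and highest cell of 1.10 and 5.86 in D0, 1.75 and 5.45 in D1, and 0.710 and 4.88 in D2. The score lies above the upper quartile of D0 (4.95) in 8 of 50 D1 cells (16%, 7.17% to 29.1%) and in 0 of 93 D2 cells (0% to 3.89%). A rougher limit, which takes a count of 0 to allow 3 of the 93 cells, is 3.23%. D2 was low in this score and not in the sum. The median cell had a thinned read of 43.5 members in D0, 46.5 in D1 and 32 in D2. Within a label the score moved with the number of genes detected at equal depth (Spearman correlation 0.52, 0.49 and 0.69 in D0, D1 and D2) and the sum less so (0.38, 0.0310 and 0.35). Near the limit, within 0.1 of it, were 5, 5 and 2 cells.

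The genes of the programme moved together between cells of the same label, and most of all in 2i. The Spearman correlation of a gene with the mean of the other members, over the cells of 1 label at equal depth, had a median over the 48 genes of 0.63 in D0 (90 cells), 0.31 in D1 (50 cells) and 0.26 in D2 (93 cells). The median over all genes outside the 48 with a thinned read in 50% or more of that label's cells was 0.0806 (7468 genes), 0.11 (7378) and 0.0682 (2850). That limit held for 48, 48 and 34 of the members, and among the 34 in D2 the median was 0.29. A correlation above 0.5 was found for 32, 10 and 2 of the 48 members, beside 0.670%, 1.04% and 0.0351% of these other genes. These are descriptions over cells that share a plate, a library and a sorting, with no p. The correlation was lower in D1 and D2 while the spread of the summed level was also lower, and the part of that smaller range, of the 50 D1 cells and of the fewer genes detected in D2 was not tested.

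**Figure D4:**
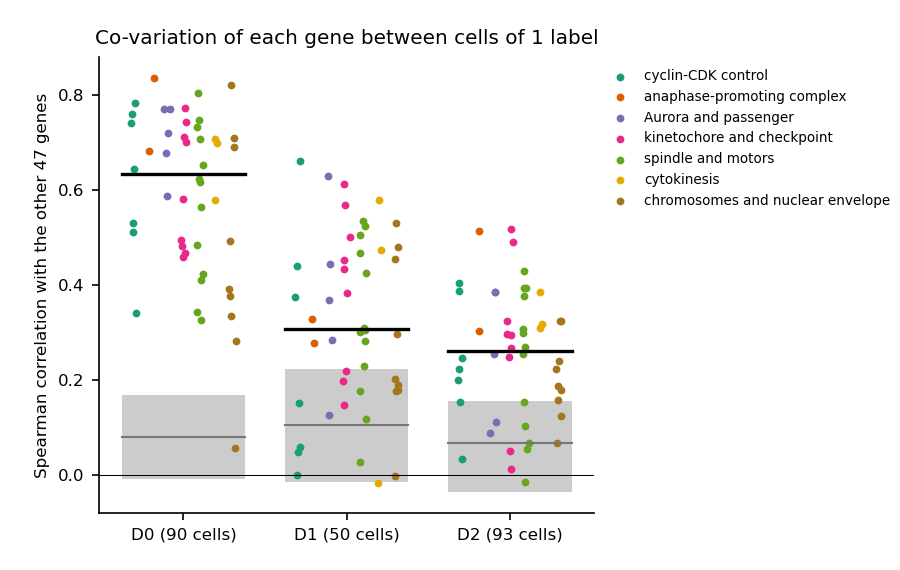
Spearman correlation, over the cells of 1 label, of each of the 48 genes with the mean of the other members (y axis), coloured by role. Black lines give the median of the members (0.63, 0.31 and 0.26), grey lines and bands the median and interquartile range of all detected genes outside the 48. In D0 nearly every gene lies above the band, in D1 and D2 several lie inside it.

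The genes with the closest relation in D0 were Ube2c (0.84), Mki67 (0.82) and Nusap1 (0.80), followed by Cdk1 (0.78) and Cenpf (0.77). In D1 they were Ccnb1 (0.66), Aurka (0.63) and Cenpe (0.61), and in D2 Cenpf (0.52), Ube2c (0.51) and Cenpe (0.49). Cenpe and Cenpf, both large kinetochore proteins, were at 0.70 and 0.77 in D0, while Mki67 was at 0.18 in D1 and 0.32 in D2. The anaphase-promoting complex genes (median 0.76) and the Aurora and passenger genes (0.72) were the roles with the highest median in D0, and the chromosome and nuclear envelope genes the lowest (0.39). Anp32e stood out as the gene least tied to the rest in D0, at 0.0579, and Hmgb2 (0.39), Tmpo (0.28), Ncapd2 (0.33) and Lbr (0.38) were also low. So were Psrc1 (0.33), Cks1b (0.34) and Ckap2 (0.34), which belong to other roles. Cks1b, higher after release, was at 0.34 in D0 and 0.00149 in D1 and 0.0344 in D2, so that in D1 and D2 its level hardly followed the others from cell to cell.

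Among pairs of genes, the median correlation was 0.36, 0.14 and 0.0836 in D0, D1 and D2, and 1106, 832 and 877 of the 1128 pairs were above 0. Pairs above 0.5 numbered 273 in D0, 35 in D1 and 0 in D2. Pairs of genes outside the list were not counted, so these counts stand without a background. Whether the difference between labels is particular to the members was not tested. Cdk1 with its cyclin Ccnb1 was at 0.75, 0.36 and 0.38. Ccnb1 with Ccnb2 was at 0.50 in D0 but -0.25 in D1 and -0.0915 in D2. Cenpe with Cenpf was at 0.68, 0.58 and 0.28, Aurka with Tpx2 at 0.54, 0.32 and 0.25, and Aurkb with Birc5 at 0.55, 0.0276 and 0.14. Smc4 and Ncapd2, of 1 condensin complex, were at 0.0330, -0.23 and 0.32, without a shared pattern.

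**Figure D5:**
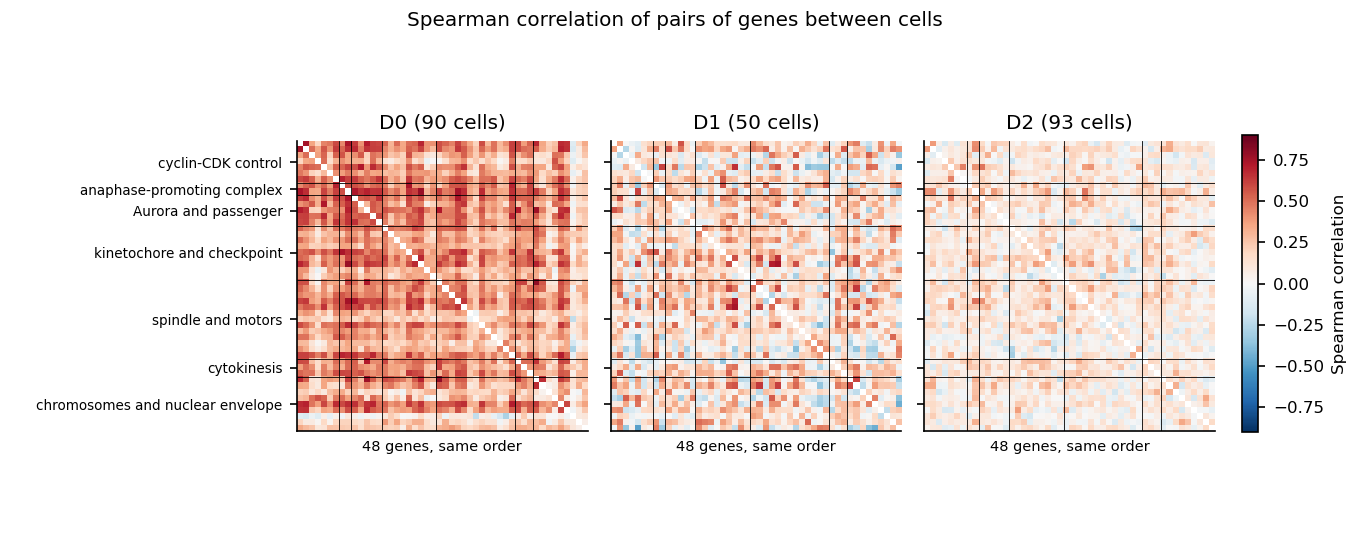
Spearman correlation of each pair of the 48 genes (rows and columns in the same order, grouped by role) over the cells of D0, D1 and D2. Red is positive and blue negative; the D0 panel is red nearly throughout, with 273 of 1128 pairs above 0.5, and the last rows, Anp32e, Tmpo and Lbr, are pale.

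Taken singly, most of the genes varied less between cells in D1 than in D0. The coefficient of variation between cells at equal depth was higher in D0 than in D1 for 38 of the 48 genes, beside 50.8% of all genes. Its median over the 48 members was 0.968 in D0 and 0.824 in D1, while that of all genes with a thinned read in 50% or more of the cells of both labels was 0.963 and 0.957. In the comparisons with D2 that limit held for 34 of the 48. The coefficient was higher in D0 than in D2 for 8 of the 34 (23.5%), beside 18.3% of all genes, and higher in D1 than in D2 for 5 of the 34 (14.7%), beside 15.7%. The other 14 members all had the higher coefficient in D2. The median over the 34 was 0.920 in D0 and 1.35 in D2, and that of all genes 0.732 and 1.24, so that the higher spread of single genes in D2 was a feature of all genes.

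The other genes of mitosis followed the 48 from cell to cell as a list, and less so one by one. Over single genes, the median Spearman correlation with the score of the 48 was 0.50, 0.19 and 0.19 in D0, D1 and D2 for the other mitotic genes. It was 0.26, 0.22 and 0.13 for condensin and cohesin, 0.0777, 0.14 and 0.0831 for the complex subunits, and 0.0230, 0.0562 and 0.0374 for the S phase genes, where all detected genes outside the 48 had 0.0806, 0.11 and 0.0682. The score of the 48 had a Spearman correlation over cells of 0.95, 0.69 and 0.75 in D0, D1 and D2 with the score of the 56 other mitotic genes, of 0.61, 0.60 and 0.44 with that of 15 condensin and cohesin genes, of 0.61, 0.45 and 0.44 with that of 15 subunits and regulators of the anaphase-promoting complex, and of 0.11, 0.13 and 0.15 with that of the 44 S phase genes. By summed CPM the values were 0.95, 0.52 and 0.56 for the other mitotic genes, 0.37, 0.32 and 0.0615 for condensin and cohesin, 0.32, 0.17 and 0.0890 for the complex, and -0.0959, -0.20 and -0.34 for the S phase genes. The relation to the S phase genes thus changed sign with the measure under every label, and the score moves with the number of detected genes as given above. In level those 56 genes, of which 54, 53 and 54 could be compared, had a median ratio of -0.50 in D1 over D0, -0.30 in D2 over D0 and 0.29 in D2 over D1. At least 2-fold higher and lower were 2 and 10 of them in D1 over D0, beside 13.2% and 25.1% of all genes, then 8 and 14 in D2 over D0, beside 9.74% and 28.1%, and 14 and 9 in D2 over D1, beside 15.0% and 19.4%. With the median over cells in place of the mean, their median ratio was -0.27, -3.15 and -3.02. The largest differences were Cenpi, a centromere protein, in D1 (mean 20.7 CPM against 90.8 in D0, median cell 1.17 against 68.5), and Foxm1, a transcription factor of the mitotic programme, in D2 (mean 2.40 CPM against 30.1 in D0, median cell 0 against 7.96). Lin9, a subunit of the MuvB complexes, had means of 25.8, 18.8 and 96.7 CPM in D0, D1 and D2, but a median cell at 7.42, 6.36 and 0 CPM. Ccna2, cyclin A2, had means of 236, 210 and 728 CPM and a median cell at 206, 203 and 481 CPM. Cdc25a, a phosphatase of CDKs, had a mean of 70.01 CPM in D0 and 13.8 in D2, with a median cell at 61.7 and 0 CPM. Depdc1b had a mean of 66.7 CPM in D2 against 8.90 in D1, with a median cell at 0 and 0.0889 CPM. Among the genes just named, Ccna2 alone had both a higher mean and a higher median cell in D2. Others of the list had both too. Plk1 had means of 103, 105 and 212 CPM in D0, D1 and D2, with a median cell at 65.3, 82.9 and 108 CPM. Kif22 had means of 159, 133 and 256 CPM, with a median cell at 130, 102 and 159 CPM.

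The 15 condensin and cohesin genes had median ratios of -0.76 in D1 and -0.71 in D2 over D0. In each comparison 5 of them were at least 2-fold lower, and 0 in D1 and 1 in D2 at least 2-fold higher, beside the shares of all genes given above (25.1% and 28.1% lower, 13.2% and 9.74% higher). With the median over cells their median ratio was -0.66 and -5.36. Stag1, a cohesin subunit, had a mean of 150 CPM in D0 and 39.1 in D1, with a median cell at 129 and 26.4 CPM. Wapl, which releases cohesin from DNA, had means of 430, 256 and 65.5 CPM in D0, D1 and D2, with a median cell at 381, 223 and 2.92 CPM. The S phase genes had medians of -0.05 and 0.01, and of -0.00277 and -1.32 with the median over cells. E2f8, a repressor of E2F targets, had a mean of 9.75 CPM in D0 and 24.0 in D1, with a median cell at 0 and 8.69 CPM, and Ccne2, cyclin E2, a mean of 32.9 in D1 and 7.89 in D2, with a median cell at 27.7 and 0 CPM.

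The genes outside the 48 that were most like their score, by the mean of the 3 correlations within a label, over 2391 genes detected under all labels, were Ccna2 (0.57), Arl6ip1 (0.51), Plk1 (0.50), Tuba1c (0.49), Sgol2a (0.47), Ccnf (0.46), Kpna2 (0.45), Kif22 (0.45), Kif20a (0.44) and Racgap1 (0.41). Of these 10, 7 stand in the list of other mitotic genes. Arl6ip1, a protein of the endoplasmic reticulum, Tuba1c, an alpha-tubulin, and Kpna2, an importin, do not. Tuba1c had means of 342, 357 and 1466 CPM in D0, D1 and D2 and a median cell at 259, 320 and 1172 CPM. Kpna2 had means of 270, 525 and 523 CPM and a median cell at 165, 312 and 277 CPM. Arl6ip1 was lower in D2, with means of 580, 698 and 304 CPM and a median cell at 502, 578 and 178 CPM.

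Genes whose promoter held the elements described above were compared with those that did not, as medians and without a test. In D0 the 34 genes with a CCAAT box had a median correlation with the others of 0.67 and the 8 without it 0.62, and the 33 with a homology region 0.65 against 0.64 in the 9 without. In D1 the values were 0.31 and 0.29 for the box, and 0.31 and 0.23 for the region, and in D2 0.25 and 0.32 for the box, and 0.27 and 0.27 for the region. The order was thus the other way for the box in D2. In D1 over D0 the median ratio was 0.07 with the box and 0.10 without it, and -0.09 with the region and 0.37 without it. In D2 over D0 the median ratio was 0.13 with the box and 0.41 without it, and -0.24 with the region and 0.57 without it.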

How the data were processed

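The authors aligned 75-bp paired-end reads with HISAT2 to GRCm38, as the submitters' processing notes name it, and deposited a table of raw counts, whole numbers of reads on each gene in each of 288 wells. It is not the filtered, normalized table that the descriptions of the samples name. The counting tool and annotation are not given in the sources used here. The study's filter on cells was applied, with its mitochondrial limit read as a fraction. Counts were scaled to CPM, and means give each cell equal weight. Ratios are log2((mean CPM + 1)/(mean CPM + 1)), over genes read in 50% or more of the cells under either label, and called at 2-fold. Depth differed, so scores and correlations used cells thinned to 200000 reads. Totals per cell are given in the report. With 1 culture per label there was no test. Exact 95% intervals cover counting error only. Lengths are of the union of exons in GENCODE M21, and near-identical transcripts were matches of at least 95% identity over 300 bases.

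Values in full are given for 12 core genes and for the 5 largest differences in each direction, and of the other lists for the 3 largest. Members, lists and this rule were chosen with earlier results of these data known. The ratio and correlation measures were tested on simulated data. Python 3.11.15, numpy 2.4.6, pandas 2.3.3, scipy 1.17.1 and, for scaling factors, edgeR 4.0.16 and DESeq2 1.42.0 in R 4.3.3 were used. Alternatives were other scalings, pseudocounts, filters, cuts and plate sides. Taking out length, leaving out cells (also the highest cell of a gene), and the spread and the low limit of the sum were chosen after seeing the data. The planned comparison of proteins was not made.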

Additional observations from a re-analysis of the deposited data

Results flagged for a closer look

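Of the 288 wells, 55 failed the filter on cells and enter no value of the report. They nevertheless held 12949 reads on the 48 genes in all, of 1931330 reads, and 41 of them had more than the 3 reads that a count of 0 allows. The 46 failed D1 wells held 4287 of these reads, the 6 failed D0 wells 1027 and the 3 failed D2 wells 7635.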

How the results depend on the processing

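With 1 culture per label there is no error for a difference between labels, and the low number of genes in D2, the Hprt and Y-linked reads of D1 and transcript length move with the labels. No paired analysis was possible because well numbers are positions on different plates and each label is 1 culture.

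Of the 28 single ratios of at least 2-fold, 0 changed direction under the 16 alternatives (448 values), though 347 values moved by more than counting error. Of the 116 ratios under 2-fold, 64 changed sign under at least 1 alternative (132 of 1856 values). The median log2 ratio of the members moved under nearly all of them, and is given for D1 over D0, D2 over D0 and D2 over D1 in that order. It was 0.22, 0.21 and -0.12 with each cell thinned, 0.0524, 0.16 and -0.16 with reads summed over cells, and 0.31, -1.80 and -1.66 with the median over cells. With TMM factors it was 0.44, 0.47 and -0.0406, with median-of-ratios factors 0.33, 0.42 and 0.0138, and with totals without abundant genes 0.37, 0.24 and -0.23. With a pseudocount of 10 CPM it was 0.21, 0.18 and -0.10, and with one of 0.1 CPM 0.23 in D1 over D0. With no filter on cells it was -0.0627, 0.21 and -0.00466, and with over 300000 reads and over 3000 genes 0.26, 0.24 and -0.11. In plate columns 1 to 6 it was 0.33, -0.0222 and -0.23, and in columns 7 to 12 0.0879, 0.35 and 0.0737. Without D1 cells that have no Hprt read it was 0.23 for the first and -0.11 for the last, and without D0 and D1 cells under 5000 genes at equal depth 0.25, 0.21 and -0.12. Without the highest cell of each label for each gene it was 0.22, 0.0939 and -0.24. Less the median of genes of like length it was 0.51, 0.39 and -0.0706. The median over all genes did not always move the same way. With reads summed over cells it rose from -0.20 to -0.12 in D1 over D0, where that of the members fell. In both comparisons with D0 the median of the members lay above that of all genes under each of these settings. The cause was not tested.

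On the scale less length, 10 members were at least 2-fold higher and 0 lower in D1 over D0, and 12 higher and 1 lower in D2 over D0. At 1.5-fold there were 14 members higher in D1 than D0 and 8 lower, 15 and 12 for D2 against D0, and 6 and 10 for D2 against D1. The share of cells with a high score was 20.4% in D2 by the summed CPM. With the limit at the D0 median it was 80% in D1 and 9.68% in D2, and at the D0 90th percentile 2% in D1. The share with a low sum in D1 was 0% under the D0 10th percentile. The coefficient of variation of the sum moved by less than 1.5 times in every setting tried. The median correlation of a member with the others was 0.44 in D1 by Pearson, 0.19 in D2 in plate columns 1 to 6, 0.41 in D1 and 0.14 in D2 among cells with more detected genes, and 0.53, 0.25 and 0.19 in D0, D1 and D2 among cells with fewer. In D0 it stayed above that in D1 and D2 under all 10 alternatives.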
